A study of Homo sapiens with 4 samples.

Results

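Expression of 9 apolipoprotein genes and of MTTP was described in HepG2 cells, an established human liver tumour line. The cells received either a negative control anti-miR or anti-miR-191, an oligonucleotide designed to block the microRNA miR-191. The members APOA1, APOA2, APOA4, APOB, APOC1, APOC3, APOE, APOH, APOM and MTTP were listed by name, with earlier results of these data known. Each was read from the brightest array row that carried its symbol alone. All 10 were found, among 18417 genes with such a row, and all 10 passed the filter on dim rows that left 14147 genes for testing. RNA came from 4 cultures on 4 Affymetrix arrays, 2 per group, from 2 experiments done independently, each with 1 culture per treatment; p-values therefore measure the spread between these arrays. Both groups were grown in serum-containing medium and transfected with the same lipid reagent, so the controls also carry an anti-miR and no untransfected cells are part of the comparison. Neither the dose nor the time after transfection is given in the sources used here. HepG2 is a single tumour line, and the RNA is from whole cultures, in which fewer cells of a state and less RNA per cell cannot be told apart.

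Apolipoproteins are the protein coats of plasma lipoproteins. The liver assembles very low density lipoprotein around APOB, onto which the microsomal triglyceride transfer protein MTTP loads lipid, and it secretes APOA1 and APOA2 for high density lipoprotein. The small exchangeable proteins of the APOC group and APOE move between particles and control how fast lipases and receptors clear them. Most of these genes are markers of the differentiated hepatocyte and are driven in part by liver nuclear receptors. HepG2 cells are widely used to study their secretion.

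The inhibitor is directed at miR-191, whose mature 5p strand, from RefSeq (GRCh38.p14), lies at chr3:49020672-49020694 on the minus strand. It is shown first because miR-191 is the intended target, with its seed (bases 2 to 8) in capitals. Whether miR-191 was inhibited was not tested.
hsa-miR-191-5p: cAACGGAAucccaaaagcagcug
An anti-miR binds the mature strand, so the array row of the precursor does not check the inhibition. That row read 5.22 and 5.14 after anti-miR-191, with controls at 4.97 and 4.75.

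RefSeq's promoter table (GRCh38.p14) held entries for 7 of the 10 members. The 250 bases before the start are shown for APOC1 and APOM, members that fell and had an entry, and for the second listed start of MTTP, the entry with the most kinds of motif. Capitals mark matches to the motifs described after the sequences.
APOC1, chr19:44914422-44914671, plus strand: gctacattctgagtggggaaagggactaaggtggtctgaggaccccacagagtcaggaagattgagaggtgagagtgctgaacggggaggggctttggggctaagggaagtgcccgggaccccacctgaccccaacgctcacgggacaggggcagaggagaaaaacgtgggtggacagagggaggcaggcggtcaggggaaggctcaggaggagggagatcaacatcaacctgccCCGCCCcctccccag
APOM, chr6:31655644-31655893, plus strand: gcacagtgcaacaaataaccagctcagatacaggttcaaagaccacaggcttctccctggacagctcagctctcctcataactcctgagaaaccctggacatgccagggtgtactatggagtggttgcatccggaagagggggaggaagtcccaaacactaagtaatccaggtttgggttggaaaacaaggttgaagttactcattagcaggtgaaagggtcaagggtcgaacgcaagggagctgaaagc
MTTP, chr4:99574574-99574823, plus strand: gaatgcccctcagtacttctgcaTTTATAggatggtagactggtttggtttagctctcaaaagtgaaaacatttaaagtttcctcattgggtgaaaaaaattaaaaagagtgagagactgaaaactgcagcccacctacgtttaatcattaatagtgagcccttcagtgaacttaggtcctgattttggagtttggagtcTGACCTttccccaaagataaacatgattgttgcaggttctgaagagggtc
On both strands of 34796 such windows, 6 motifs were searched. The HNF4 core AAAGTCC occurred in 3.21% of all windows, the AP-1 motif TGANTCA in 6.59%, the C/EBP motif TTGCNNAA in 9.05%, the TATA box TATAAA in 10.8%, the nuclear receptor motif AGGTCA in 12% and the Sp1 motif GGGCGG in 42.6%. APOC1 held the Sp1 motif on the minus strand, 15 to 10 bases before its start, and none of the other motifs. The APOM window held none of the 6. The MTTP window held, on the minus strand, AGGTCA 50 to 45 bases and TATAAA 227 to 222 bases before its start. The APOA4 window held AAAGTCC 134 to 128 bases before its start, and the windows of APOA2 and APOH held none. No printed match overlaps another, and the matches describe the letters only.

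The members were lower on balance after anti-miR-191, and APOC3, APOC1 and APOM fell in the paired fit described next. Levels are RMA intensities on the log2 scale. Changes are anti-miR-191 minus control on that scale, as the mean of both experiments ± SE of a paired fit, in which each experiment is a block (n = 2 arrays per group throughout). Rose and fell are used where limma's adjusted p in the paired fit, taken over all genes tested, was under 0.05. On simulated data the paired fit called more unchanged genes than its threshold allows, so its calls are read beside an unpaired fit. In the paired fit 3 of the 10 members fell and 0 rose, where 3.77% of all genes fell and 10.1% rose, 13.9% in either direction. The members were chosen with earlier results of these data known, so these shares describe them and do not test them as a set. In an unpaired fit, without that block, 1 member (APOC1) was lower and 0 were higher, against 0.714% and 3.2% of all genes. Of all genes called in the unpaired fit, 81.7% were higher, and 70.3% after quantile normalization. At an unadjusted p under 0.05, limma counted 6 members in the paired fit and 5 in the unpaired fit, beside 28.1% and 21.5% of all genes. The median change of the members was -0.52 (-0.32 in experiment 1 and -0.81 in experiment 2), and that of all genes was 0.01. Without anti-miR-191 replicate 2 the members' median was -0.31 in the unpaired fit, beside 0.03 for all genes, an alternative chosen after seeing the data.

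Bright genes were counted apart, since most members are bright. Among genes with a mean level of 9 or more, 16.8% fell and 8.7% rose in the paired fit. Of the 7 members at such levels, 2 fell, APOC1 and APOM. The part of brightness in the members' changes was not tested. Under cyclic loess, which rescales the arrays along the range of levels, the changes of APOC1, APOC3 and APOM were -0.98, -1.08 and -0.80. Those of APOA1 and APOA2, the brightest members, were -0.43 and -0.18, beside -0.48 and -0.27 in the values as deposited. APOA4, APOB, APOE, APOH and MTTP had changes of -0.10, -0.52, -0.56, 0.09 and -0.49 under cyclic loess.

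**Figure D1:**
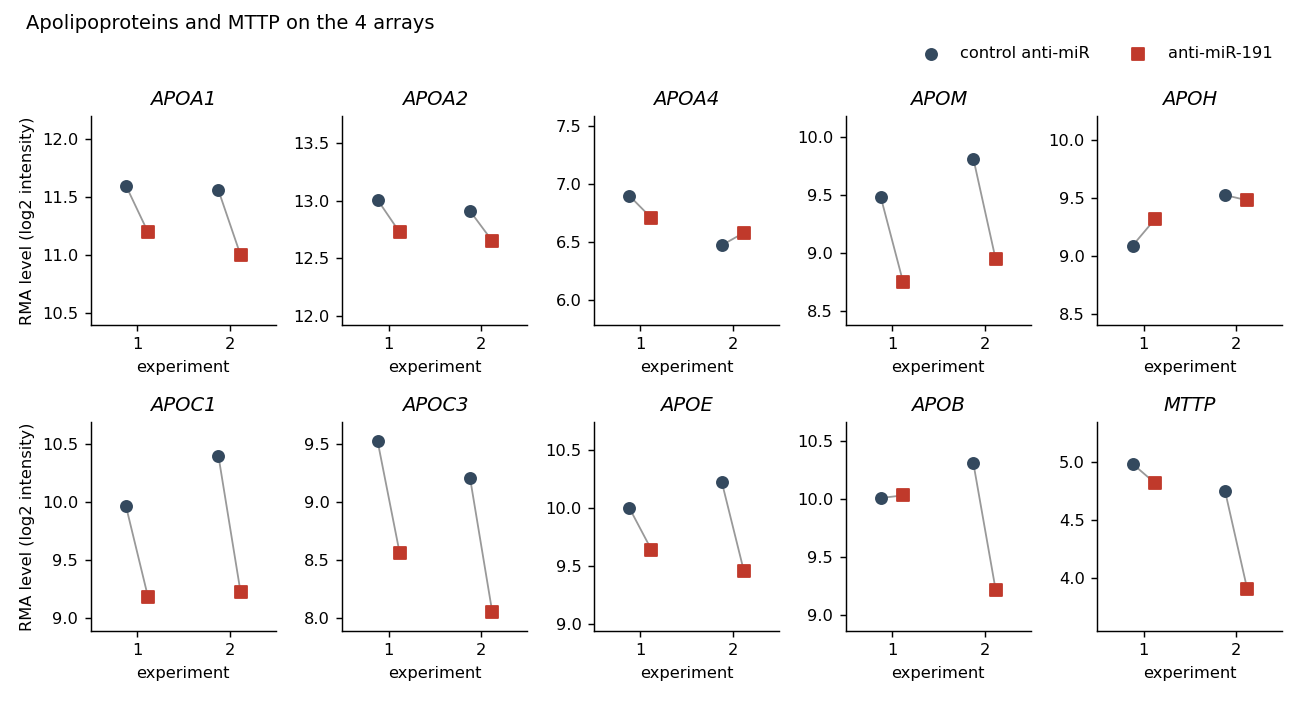
RMA level (log2 intensity) of each gene in experiments 1 and 2, with circles for the control anti-miR, squares for anti-miR-191 and a line joining the arrays of 1 experiment; each panel spans the same range of 1.8 log2 units. Both anti-miR-191 arrays lie below both controls for APOA1, APOA2, APOM, APOC1, APOC3 and APOE, while APOB and MTTP are clearly lower in experiment 2 alone.

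The inhibitors of lipolysis showed the largest changes. APOC3, which restrains lipoprotein lipase and the hepatic uptake of triglyceride-rich particles, read 8.56 and 8.05 in experiments 1 and 2 after anti-miR-191, against 9.53 and 9.21 in the controls. The anti-miR-191 arrays lay below the controls in both experiments, by 0.97 and 1.16. APOC3 fell 2.09-fold (-1.06 ± 0.15, limma's adjusted p = 0.0057 in the paired fit and 0.056 in the unpaired fit). In the unpaired fit it passed only after median centring (adjusted p = 0.047, in a range of 0.047 to 0.118 over 8 alternatives). A dimmer row for APOC3 had changes of -0.96 and -1.16, with a mean of -1.06. Whether the rows share probes was not tested, so the dimmer row is not counted as a second measurement.

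APOC1, which inhibits lipoprotein lipase and the cholesteryl ester transfer protein, read 9.18 and 9.22 after anti-miR-191 and 9.97 and 10.40 in controls. The anti-miR-191 values were nearly equal, whereas the controls differed by 0.43, and the groups did not overlap. APOC1 fell 1.98-fold (-0.98 ± 0.16, limma's adjusted p = 0.0095 paired and 0.046 unpaired). Its unpaired call was lost without any 1 of the 4 arrays (adjusted p between 0.095 and 0.219), and under 4 of 8 other alternatives (range 0.030 to 0.101). The pseudogene APOC1P1 closely resembles APOC1, and signal from it on this row was not tested.

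APOE, the ligand through which remnant particles bind hepatic receptors, read 9.64 and 9.45 after anti-miR-191 against 10.00 and 10.22 in controls. Its groups did not overlap either, and its change was larger in experiment 2 (-0.77) than in experiment 1 (-0.36). With a mean of -0.57 ± 0.16, APOE missed the threshold (limma's adjusted p = 0.058 paired, 0.115 unpaired), with an unadjusted 95% interval of -0.94 to -0.19. It passed under moderation with a trend and robust variances (adjusted p = 0.041, range 0.041 to 0.118 over 8 alternatives of the paired fit).

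Of the proteins of high density lipoprotein, APOM fell. APOM, the lipocalin that carries sphingosine 1-phosphate on these particles, read 8.75 and 8.94 after anti-miR-191 and 9.48 and 9.81 in controls. Both anti-miR-191 arrays lay below both controls. APOM fell 1.74-fold (-0.80 ± 0.15, limma's adjusted p = 0.013 paired and 0.066 unpaired). In the unpaired fit it passed only after median centring (adjusted p = 0.047, range 0.047 to 0.127 over 8 alternatives). The 3 rows that carry the APOM symbol held the same values on all 4 arrays.

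The major structural proteins of that particle did not pass. APOA1, the activator of lecithin-cholesterol acyltransferase, read 11.20 and 10.998 after anti-miR-191 and 11.60 and 11.56 in controls. Both controls lay above both anti-miR-191 arrays, but the mean change of -0.48 ± 0.15 missed the threshold (limma's adjusted p = 0.070 paired, 0.138 unpaired; unadjusted 95% interval -0.82 to -0.14). APOA1 too passed under moderation with a trend and robust variances (adjusted p = 0.031, range 0.031 to 0.128 over 8 alternatives). APOA2, its partner on a subset of particles, read 12.72 and 12.65 against 13.01 and 12.91. The changes of APOA2 were alike in both experiments (-0.28 and -0.26), and their mean of -0.27 ± 0.14 did not pass (limma's adjusted p = 0.276 paired, unadjusted 95% interval -0.60 to 0.06). APOA4, a protein mostly of intestinal chylomicrons, read 6.70 and 6.58 after anti-miR-191 and 6.90 and 6.47 in controls. Its groups overlapped, and its changes had opposite signs (-0.19 and 0.11). The mean of -0.04 ± 0.15 did not pass (limma's adjusted p = 0.890 paired, unadjusted 95% interval -0.40 to 0.31). A dimmer row for APOA4 had changes of -0.32 and 0.02, with a mean of -0.15.

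APOB and MTTP, the pair on which assembly of very low density lipoprotein depends, were low on 1 array in particular. APOB read 10.03 and 9.22 after anti-miR-191 and 10.01 and 10.31 in controls. In experiment 1 the arrays differed by 0.02, and in experiment 2 the anti-miR-191 array was 2.13-fold lower than its control. The mean of -0.53 ± 0.25 did not pass (limma's adjusted p = 0.211 paired, 0.344 unpaired; unadjusted 95% interval -1.11 to 0.04). Leaving out anti-miR-191 replicate 2 gave an unpaired change of -0.13 for APOB, and leaving out replicate 1 gave -0.94.

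MTTP read 4.82 and 3.90 after anti-miR-191 and 4.98 and 4.75 in controls. Its lowest value was also on the anti-miR-191 array of experiment 2, with changes of -0.17 and -0.85 in experiments 1 and 2. The mean of -0.51 ± 0.19 did not pass (limma's adjusted p = 0.127 paired, 0.402 unpaired; unadjusted 95% interval -0.95 to -0.06). The unpaired change of MTTP was -0.05 with replicate 2 of anti-miR-191 left out and -0.97 with replicate 1 left out. The control levels of MTTP lie in the range of markers of other cell types on these arrays (3.42 to 6.02 for stromal and endothelial markers), so MTTP is not shown to be above background.

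APOH is a plasma glycoprotein that binds anionic phospholipids and is not needed for particle assembly. Its groups overlapped and its changes had opposite signs, as for APOA4 and APOB. It read 9.32 and 9.48 after anti-miR-191 and 9.09 and 9.53 in controls, so that the anti-miR-191 arrays lay between the controls. Its changes were 0.23 and -0.05, with a mean of 0.09 ± 0.15 (limma's adjusted p = 0.753 paired, unadjusted 95% interval -0.26 to 0.44).

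Across the members, both anti-miR-191 arrays lay below both controls for 6 genes and above them for 0, while 23.8% and 29.4% of all genes did so. A lower value in both experiments was seen for 7 of 10 members and for 33% of all genes, and opposite signs for 3 of 10 and for 30.4%. The absolute change was larger in experiment 2 for 7 of the 10 and for 53% of all genes. With members chosen when earlier results were known, these shares are a description.

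**Figure D2:**
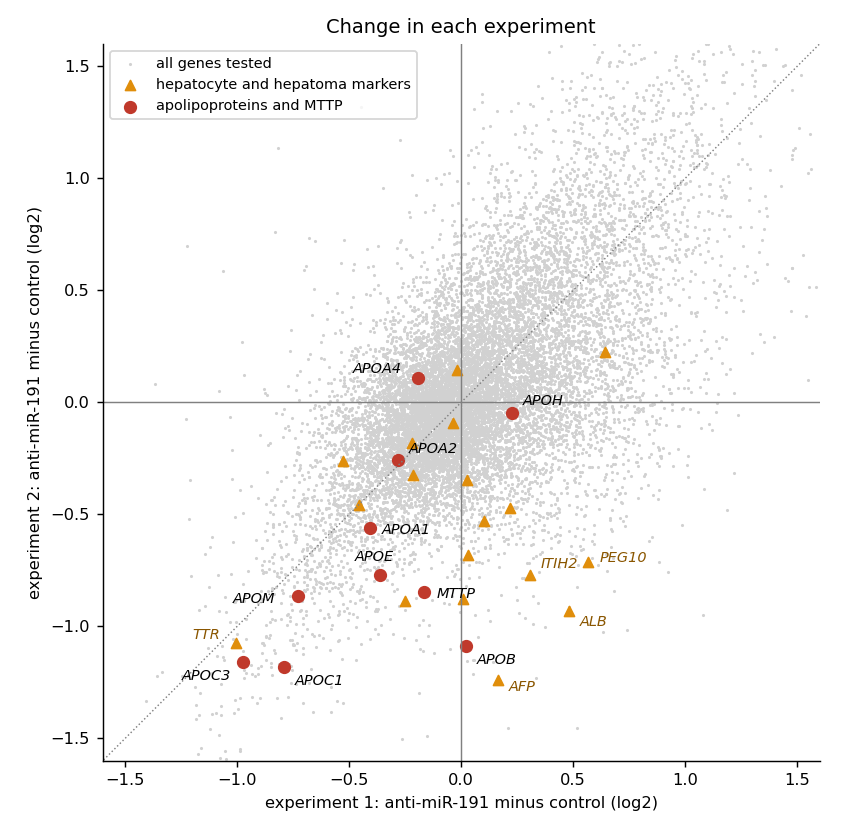
Change in experiment 2 against change in experiment 1 (log2, anti-miR-191 minus control), with grey dots for all genes tested, circles for the apolipoproteins and MTTP and triangles for hepatocyte and hepatoma markers; the dotted line marks equal changes, and 190 genes beyond 1.6 in either direction are outside the axes. APOC3, APOC1 and APOM lie low in both experiments, whereas APOB lies beside ALB and AFP, near or above 0 in experiment 1 and low in experiment 2.

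Liver identity was checked on marker lists. All but ARG1 of 16 hepatocyte markers were bright enough for testing, with control levels between 4.82 and 11.62, and AMBP, AHSG and TF read 11.54 to 11.69, 11.38 to 11.47 and 10.84 to 11.04 in controls. Of these 15, 0 rose and 1 fell, beside 10.1% and 3.77% of all genes, and the list's median change was -0.23. The 1 that fell was the thyroxine and retinol-binding protein carrier TTR (2.06-fold lower, -1.04 ± 0.14, limma's adjusted p = 0.0057 paired and 0.038 unpaired). The changes of TTR were -1.01 and -1.07 in experiments 1 and 2, beside -0.97 and -1.16 for APOC3. The experiment-dependent shape of APOB recurred among some of the markers. Of 18 hepatocyte and hepatoma markers tested, 9 were higher in experiment 1 and lower in experiment 2: ALB, TF, FGA, FGB, FGG, ITIH2, AFP, GPC3 and PEG10, chosen after their values were seen. Their changes ran from 0.0085 to 0.57 in experiment 1 and from -1.24 to -0.35 in experiment 2. The other markers did not share this shape. TAT was higher in both experiments (0.64 and 0.23), and VTN had changes of -0.02 and 0.15. TTR, SERPINA1, AHSG, RBP4, AMBP, HPX and CPS1 were lower in both. The control of experiment 2 was above that of experiment 1 for ALB, FGB, ITIH2, AFP, GPC3 and PEG10, and below it for TF, FGA and FGG. Controls of FGB and FGG lie in the range of other cell types' markers given for MTTP. ALB, the main plasma protein, read 10.62 and 9.65 after anti-miR-191 and 10.14 and 10.58 in controls. AFP, its fetal counterpart, read 9.31 and 8.60 against 9.14 and 9.84. The anti-miR-191 array of experiment 2 was the lowest of the 4 for 15 of the 18 markers and for 6 of the 10 members. Over all genes that array was the lowest for 27.7%, and 15.9% were higher in experiment 1 and lower in experiment 2; among genes with a mean level of 9 or more the shares were 33.9% and 8.55%. The part of this array in the changes of APOB and MTTP was not tested.

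No marker of another cell type that was tested passed the threshold, where 13.9% of all genes did. Of 8 enterocyte markers tested, which matter here because the intestine also makes APOA4 and APOB, 0 passed, and the median change was -0.04. The intestinal genes FABP2 and SI were below the level limit of 3.41, while ANPEP, also a hepatocyte protein, read 8.81 and 8.79 in controls. Of 8 macrophage, 8 stromal and endothelial and 2 blood markers tested, 0 passed, with median changes of -0.11, -0.01 and 0.05. LYZ (9.25 and 9.23 in controls), COL1A1 (6.004 and 6.05) and HBB (3.62 and 3.70) were the brightest of these lists. Summed over the list, the levels of the tested macrophage markers came to 42.29 to 42.86 after anti-miR-191 and 42.80 to 43.09 in controls, and those of the enterocyte markers to 48.45 to 49.79 and 48.83 to 49.25.

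The members of 2 gene clusters were set beside their neighbours. On chromosome 11 the order along the chromosome is BUD13, ZPR1, APOA5, APOA4, APOC3, APOA1 and SIK3. APOA5, an activator of lipoprotein lipase, read 6.42 and 5.94 after anti-miR-191 and 6.996 and 6.51 in controls. Like APOC3 it was lower in both experiments, by 0.57 and 0.56, and it fell 1.48-fold (-0.57 ± 0.14, limma's adjusted p = 0.039 paired, 0.239 unpaired). APOA4, which lies between APOA5 and APOC3, had changes of opposite signs with a mean of -0.04. The flanking genes went the other way from APOA5 and APOC3. The spliceosomal gene BUD13 rose 1.92-fold (0.94 ± 0.19, limma's adjusted p = 0.017 paired) and the zinc finger gene ZPR1 rose 1.62-fold (0.70 ± 0.16, limma's adjusted p = 0.030 paired). On the other side the salt-inducible kinase gene SIK3 rose 1.5-fold (0.59 ± 0.14, limma's adjusted p = 0.035 paired). In the unpaired fit these 3 did not pass (adjusted p between 0.056 and 0.077). ZPR1 and SIK3 lost the paired call after quantile normalization (adjusted p = 0.052 and 0.079), and SIK3 also under cyclic loess (0.053). The genes beyond SIK3 on the fixed list, PAFAH1B2, TAGLN and PCSK7, had changes of 0.24, 0.11 and 0.04, and none of the 3 passed.

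On chromosome 19 APOE and APOC1 lie side by side. The adjoining TOMM40, of the mitochondrial import pore, and NECTIN2, a cell adhesion gene, had changes of -0.07 and -0.04 that did not pass (unadjusted 95% intervals -0.41 to 0.26 and -0.37 to 0.30), beside -0.57 for APOE and -0.98 for APOC1. APOC4 and APOC2, the next genes on the other side, were not analysed here. BCAM, a laminin-binding adhesion gene, was lower in both experiments, by 0.43 and 0.48, with both anti-miR-191 arrays below both controls, and its change of -0.45 ± 0.14 did not pass (limma's adjusted p = 0.081 paired). CLPTM1 had a change of 0.07, and RELB, an NF-kB subunit, rose 2.32-fold (1.21 ± 0.17, limma's adjusted p = 0.0054 paired and 0.029 unpaired). The differences between these neighbours and the apolipoprotein genes were not tested.

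**Figure D3:**
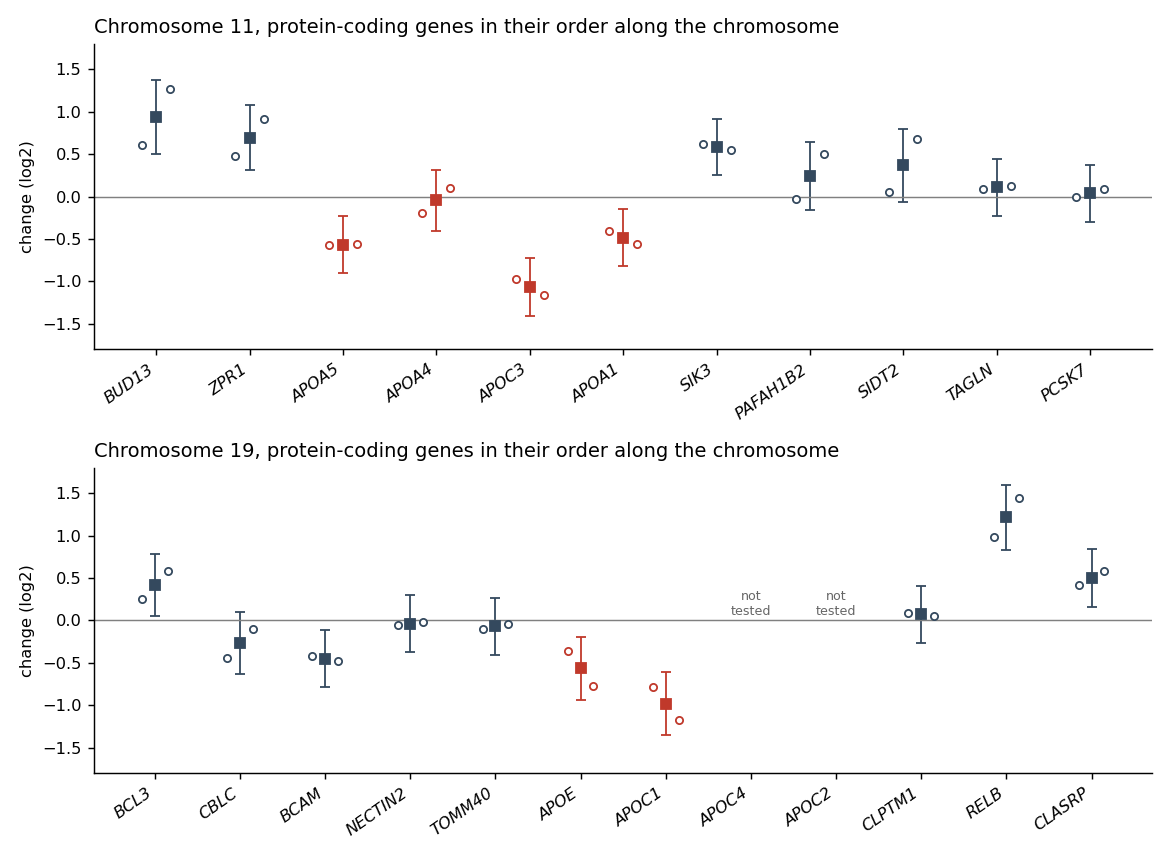
Change (log2, anti-miR-191 minus control) of protein-coding genes in their order on chromosomes 11 and 19, with squares for the mean, bars for the unadjusted 95% interval of the paired fit (n = 2 arrays per group) and open circles for experiments 1 and 2; names of apolipoprotein genes begin with APO. APOA5, APOC3 and APOA1 lie below 0 between BUD13 and ZPR1 on 1 side and SIK3 on the other, which lie above 0. APOA4, between APOA5 and APOC3, lies near 0 (-0.04).

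Of the other apolipoproteins and apolipoprotein-like genes, 11 of 18 listed were tested, 0 rose and 1 fell, APOA5, described above. Over all genes, 10.1% rose and 3.77% fell. The list's median change was -0.09. CLU, which encodes the chaperone-like apolipoprotein J, read 7.77 and 7.67 after anti-miR-191 and 8.07 and 7.87 in controls, a change of -0.25 ± 0.14 that did not pass. APOL1, the trypanolytic factor, had a change of -0.17 ± 0.18.

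Genes of particle assembly and secretion were mixed. Of 18 tested, 2 rose and 0 fell, beside 10.1% and 3.77% of all genes, and the list's median change was 0.08. PLIN2, the coat protein of the lipid droplets that store the triglyceride not exported, read 9.48 and 8.75 after anti-miR-191 and 8.36 and 7.90 in controls. It was higher in both experiments and rose 1.98-fold (0.98 ± 0.15, limma's adjusted p = 0.0078 paired, 0.115 unpaired). SEC24C, a cargo adaptor of the coat that moves proteins out of the endoplasmic reticulum, rose 1.45-fold (limma's adjusted p = 0.048 paired), a call lost after each rescaling of the arrays (0.056 median-centred, 0.097 by quantiles, 0.065 by cyclic loess). P4HB, the subunit that MTTP needs for solubility, had a change of 0.22 ± 0.14 and SURF4, a cargo receptor for lipoproteins, one of -0.04 ± 0.15. DGAT1, which makes triglyceride, had a change of -0.54 ± 0.15 that missed the threshold (limma's adjusted p = 0.051 paired, 0.229 unpaired). DGAT2, SEC24D and SAR1B of the same list had changes of -0.45, 0.67 and 0.47. They did not pass either (limma's adjusted p between 0.080 and 0.083 paired). DGAT1 and the genes set beside it were named after their values were seen.

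Among receptors and uptake genes 2 of 15 tested rose and 1 fell, beside 10.1% and 3.77% of all genes. The list's median change was -0.04. MYLIP, the ubiquitin ligase that marks lipoprotein receptors for breakdown, read 6.32 and 6.74 after anti-miR-191 and 4.95 and 4.61 in controls. The groups did not overlap, though the controls lie in the range of the markers of other cell types given for MTTP, and MYLIP rose 3.35-fold (1.75 ± 0.20, limma's adjusted p = 0.0035 paired and 0.023 unpaired). LRP6, a Wnt co-receptor, rose 1.58-fold (0.66 ± 0.14, limma's adjusted p = 0.023 paired, 0.086 unpaired). NPC2, which carries cholesterol out of lysosomes, fell 1.74-fold (-0.80 ± 0.15, limma's adjusted p = 0.013 paired). SCARB1, the hepatic receptor for high density lipoprotein, read 9.57 and 9.50 against 9.87 and 9.80, a change of -0.30 ± 0.14 that did not pass.

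Of 14 genes of lipolysis, plasma remodelling and efflux 2 rose and 0 fell, beside 10.1% and 3.77% of all genes. The list's median change was -0.04. ABCA1, which exports cholesterol to APOA1, read 6.399 and 6.79 after anti-miR-191 and 5.56 and 5.95 in controls, a difference of 0.84 in each experiment. ABCA1 rose 1.79-fold (limma's adjusted p = 0.011 paired, 0.082 unpaired). ABCG5, a member of the sterol exporter of bile and gut, rose 1.86-fold (0.90 ± 0.15, limma's adjusted p = 0.010 paired and 0.037 unpaired). Its control values of 4.70 and 4.73 are in the range of the markers of other cell types given for MTTP, as are those of ABCA1, MYLIP, LRP6, BUD13 and SIK3. These 6 are not shown to be above background in controls, and where a control is at background the printed fold is a lower bound. The convertase FURIN and ANGPTL8, a hepatic regulator of lipoprotein lipase, had changes of 0.26 ± 0.15 and -0.23 ± 0.15 that did not pass.

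Of 24 transcriptional regulators tested, 2 rose and 0 fell, beside 10.1% and 3.77% of all genes. The list's median change was 0.04. NR1D1 (REV-ERB alpha), a nuclear receptor that represses transcription and has APOC3 among its known targets, read 8.81 and 9.70 after anti-miR-191 and 7.15 and 7.14 in controls. NR1D1 rose 4.31-fold (2.11 ± 0.22, limma's adjusted p = 0.0024 paired and 0.027 unpaired), with changes of 1.66 and 2.56 beside -0.97 and -1.16 for APOC3. CEBPB, of the C/EBP family that takes part in acute phase transcription, rose 3.12-fold (1.64 ± 0.22, limma's adjusted p = 0.0050 paired and 0.028 unpaired). Their part in the members' changes was not tested. NR0B2 (SHP), a corepressor of liver nuclear receptors, had a change of -0.41 ± 0.18, and NR2F6 one of 0.11 ± 0.15. HNF4A was not analysed here.

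**Figure D4:**
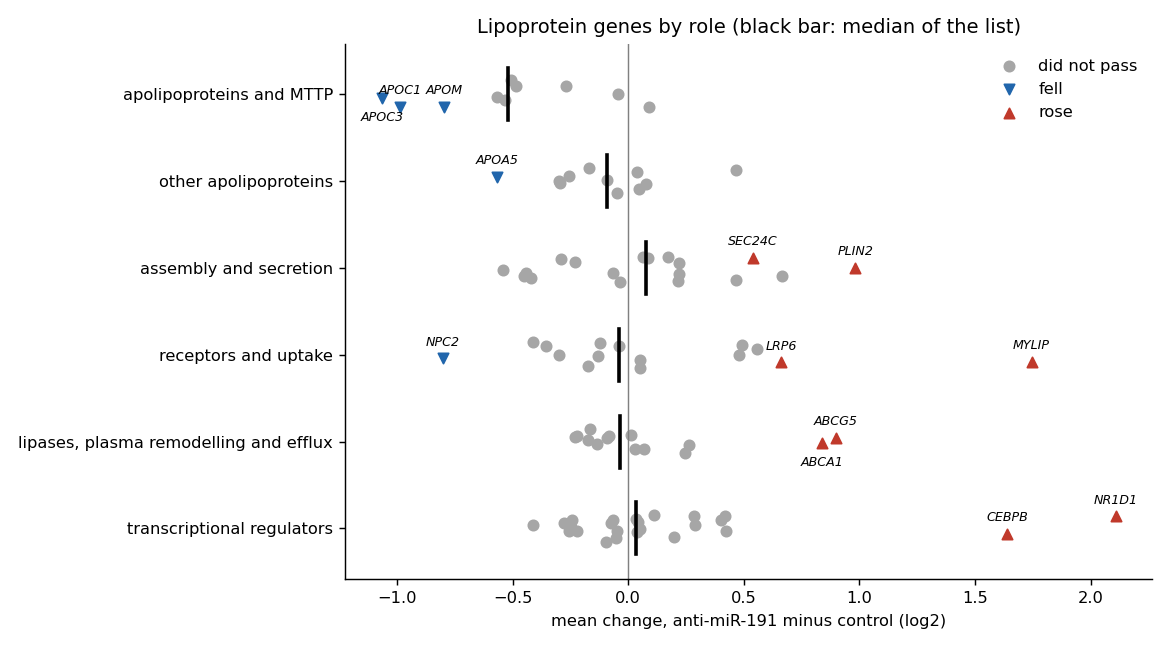
Mean change (log2, anti-miR-191 minus control) of each tested gene by role, with up and down triangles for genes that rose and fell in the paired fit, grey circles for the others and a black bar for the list's median. The median of the apolipoproteins and MTTP is -0.52, and the medians of the other 5 lists plotted lie between -0.09 and 0.08; the hepatocyte markers, not plotted here, have a median of -0.23.

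The genes whose pattern over the 4 arrays lay closest to that of APOC3, the member with the largest change, were LRFN3, AFMID and SCNN1A. They were ranked by Euclidean distance of levels centred on each gene's own mean, which was 0.08, 0.13 and 0.15 log2 units. LRFN3 had changes of -0.89 and -1.18 in experiments 1 and 2, AFMID of -1.03 and -0.98, and SCNN1A of -0.81 and -1.17. With 4 arrays this likeness is a description.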

How the data were processed

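Total RNA of 4 HepG2 cultures was hybridised to 4 Affymetrix arrays. The authors deposited RMA values, on a log2 scale, and the submitters' processing notes name Expression Console as the software. RMA output was read as log2 from its usual form and range. Its version, and which arrays entered one normalization, is not given in the sources used here. RMA summarizes the probes of a transcript cluster, compresses small differences of dim rows and carries no counting depth, so the number of arrays limits precision. Array medians lay between 4.37 and 4.43.

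Of 33297 rows, GEO's platform annotation gave 1 symbol for 19460, several for 1754 and none for 12083. The 33.3% of rows with the lowest mean (below 3.41) were left out and the brightest row kept per gene. Tests were limma 3.58.1 (R 4.3.3; lmFit, eBayes; two-sided, Benjamini-Hochberg, threshold 0.05), paired (1 residual and 6.60 prior degrees of freedom) and unpaired (2 and 4.32). The series text places the duplicates in independent studies and the titles carry the numbers 1 and 2 in each group. The correlation of same-numbered arrays' deviations was 0.335, a single value. Tested on simulated data, the paired fit called more unchanged genes than its threshold allows, so the unpaired fit stands beside it. The simulated spread came in part from differences between the experiments and was shuffled over genes. The size of that excess therefore need not hold for these arrays. Unadjusted 95% intervals are from the paired fit.

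Named genes are all members, up to 6 called and the 2 brightest genes of each pathway list, and the 3 genes nearest APOC3. For markers, list summaries and the brightest genes are given, and neighbours on the fixed cluster lists were named as well. Other hepatocyte and hepatoma markers, and DGAT1, DGAT2, SEC24D and SAR1B, were named after their values were seen. Members and lists were chosen with earlier results of these data known. Alternatives covered the block, dim-row filter, scaling, moderation, rows and single arrays left out. Figures used matplotlib 3.10.9.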

Additional observations from a re-analysis of the deposited data

Results flagged for a closer look

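In 3 members the change had opposite signs in the 2 experiments, which are the study's independent repeats; with 1 array per group in each experiment this difference was not tested. For APOB the change of experiment 2 minus that of experiment 1 was -1.11, for APOA4 it was 0.30 and for APOH it was -0.27. Among all genes tested, 30.4% had opposite signs.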

How the results depend on the processing

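In the paired fit 3 members were called, and the same 3 (APOC1, APOC3 and APOM) under each of the 8 alternatives of filter, scaling, moderation and rows, with 5 called under trend and robust moderation, which added APOA1 and APOE. Under that moderation 1965 of 14147 genes were called, beside 1961 in the main paired fit. Without the replicate block 1 member was called. The unpaired fit called 1 member, 3 with the replicate block and 3 after median centring. After median centring it called 749 of 14147 genes, beside 553 in the main unpaired fit. It called 0 members with no filter on dim rows, under cyclic loess, under trend and robust moderation and with every row tested. In each of these 4 settings limma counted 5 members at an unadjusted p under 0.05. In the same order, 3449 of 18417, 2964 of 14147 and 2991 of 14147 genes and 4067 of 22198 rows were under that limit. Over all genes the unpaired count was 553, against 1961 in the paired fit, 0 with every row tested, 339 without anti-miR-191 replicate 1 and 0 without any 1 of the other arrays, where 1663 to 3178 genes had an unadjusted p under 0.05 (4067 rows with every row tested). The unpaired fit called 0 members without any 1 of the 4 arrays, where the lone array of a group is assumed to vary like the other group, and limma then counted 3 to 7 members at an unadjusted p under 0.05. Single arrays were left out of the unpaired fit alone, since the paired fit then has no residual degrees of freedom. In it the change of APOA4 ranged from -0.26 to 0.17 and that of APOH from -0.13 to 0.31, both changing sign. The members' median change ranged from -0.52 to -0.51 under the 3 scalings and the mean of rows, and from -0.68 to -0.31 with single arrays left out, an alternative chosen after seeing the data. No untransfected cells and 2 arrays per group limit what these values show, and APOA1, APOE and MTTP, whose unadjusted 95% intervals leave out 0, missed the adjusted threshold.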
